A study of Mus musculus with 9 samples.

Results

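The genes described here are Tnf, Lta, Ltb, Tnfsf11, Tnfsf14, Tnfsf8, Tnfsf4, Cd70 and Cd40lg, which encode ligands of the tumor necrosis factor (TNF) family other than the death ligands. They are a chosen set of that family, written with earlier results of these data known, and all 9 are among the 750 genes measured. Other measured ligands that are not death ligands (Tnfsf12, Tnfsf13, Tnfsf13b, Tnfsf15 and Tnfsf18) are outside the set and are described near the end of the results. Levels were read in mouse OT-1 T cells, whose transgenic T cell receptor (TCR) recognizes a peptide of ovalbumin (OVA) on MHC-I, with an nCounter, an instrument that counts colour-barcoded probes bound to transcripts without amplification. The question was how co-culture with OVA-pulsed macrophages, with or without MHC-I-negative tumor cells, changed RNA levels in these T cells. No group held macrophages without OVA, so antigen and the presence of macrophages cannot be told apart.

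All 3 groups started from the same kind of cell. Splenocytes of OT-1 mice were activated with OVA peptide and IL-2 at 50 IU per ml for 48 h, and the purified CD8 T cells were kept in IL-2 for 4 days. In the first group (OT-1 alone) the primed cells stayed without other cells. In the second (macrophages) they were co-cultured for 24 h with bone marrow-derived macrophages pulsed with OVA peptide. In the third (macrophages and tumor) the culture also held CT2A-TRP2-β2mKO cells, a mouse glioma line made to express the antigen TRP2 and not OVA. The line carries a CRISPR knockout of B2m, so that it shows no MHC-I. Each group held 3 samples. The labels give ratios of T cells of 10 to 1 with tumor cells and 5 to 1 with macrophages, whereas the methods state fewer T cells for each. The methods name IL-2 for OT-1 alone in the final culture and leave it unclear for the co-cultures, and the deposited protocol describes the CD8+ flow sort for the co-cultures only, so IL-2, the sort and the added cells cannot be told apart in comparisons with OT-1 alone. In the design text the OT-1 alone cells appear as naive, but the growth protocol describes primed cells, and they are treated as primed here.

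TNF family ligands are mostly trimeric membrane proteins, some of which are also shed or secreted, and each binds 1 or more receptors of the TNF receptor family on a neighbouring cell. Receptors without a death domain recruit TRAF adaptors and activate NF-κB, which drives survival, cytokine and adhesion genes. Activated T cells use these ligands to act on macrophages, dendritic cells, B cells, stroma and each other, and TCR stimulation is a well known inducer of several of them.

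Of the 9 genes, 5 lie on mouse chromosome 17. Ltb, Tnf and Lta follow one another directly in the class III region of the MHC, and Cd70 and Tnfsf14 are neighbours elsewhere on that chromosome. The other members lie on chromosomes 14 (Tnfsf11), 4 (Tnfsf8), 1 (Tnfsf4) and X (Cd40lg). All 9 symbols were matched in RefSeq, and a promoter window of 300 bases (250 before to 50 after the annotated start) was used for 6 of them. The windows below are shown for the 3 adjacent genes, whose levels gave different results, and for Tnfsf11 and Tnfsf14, which had the highest fold rises past the threshold with macrophages and, for Tnfsf14, the called difference between the co-cultures. All are RefSeq sequence of build GRCm38.p6, read 5′ to 3′ on the gene's strand, with matches to the 3 motifs searched on both strands in capitals.
Ltb, chr17:35194257-35194556, plus strand: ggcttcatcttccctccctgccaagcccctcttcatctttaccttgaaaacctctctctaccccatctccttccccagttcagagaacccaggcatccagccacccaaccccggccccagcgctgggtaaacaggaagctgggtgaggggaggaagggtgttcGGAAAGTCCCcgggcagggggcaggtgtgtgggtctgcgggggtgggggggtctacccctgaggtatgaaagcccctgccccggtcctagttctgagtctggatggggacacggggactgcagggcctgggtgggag
Tnf, chr17:35201958-35202257, minus strand: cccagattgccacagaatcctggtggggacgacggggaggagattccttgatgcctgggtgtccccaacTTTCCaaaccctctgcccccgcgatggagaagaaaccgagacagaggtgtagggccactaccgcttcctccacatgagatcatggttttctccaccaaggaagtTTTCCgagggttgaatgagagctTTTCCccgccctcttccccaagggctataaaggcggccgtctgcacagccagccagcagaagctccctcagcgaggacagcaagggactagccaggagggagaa
Lta, chr17:35205302-35205601, minus strand: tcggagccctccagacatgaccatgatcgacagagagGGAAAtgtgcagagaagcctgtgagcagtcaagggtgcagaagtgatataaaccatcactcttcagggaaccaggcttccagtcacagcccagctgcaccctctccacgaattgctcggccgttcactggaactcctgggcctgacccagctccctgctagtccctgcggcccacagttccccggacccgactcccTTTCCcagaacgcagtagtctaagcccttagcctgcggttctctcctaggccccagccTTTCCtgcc
Tnfsf11, chr14:78307994-78308293, minus strand: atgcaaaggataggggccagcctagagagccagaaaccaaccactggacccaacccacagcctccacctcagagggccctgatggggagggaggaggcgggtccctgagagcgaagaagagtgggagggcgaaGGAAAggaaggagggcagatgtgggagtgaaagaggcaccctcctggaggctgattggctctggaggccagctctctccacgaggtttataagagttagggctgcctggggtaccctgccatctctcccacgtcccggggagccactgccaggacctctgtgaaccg
Tnfsf14, chr17:57194132-57194431, minus strand: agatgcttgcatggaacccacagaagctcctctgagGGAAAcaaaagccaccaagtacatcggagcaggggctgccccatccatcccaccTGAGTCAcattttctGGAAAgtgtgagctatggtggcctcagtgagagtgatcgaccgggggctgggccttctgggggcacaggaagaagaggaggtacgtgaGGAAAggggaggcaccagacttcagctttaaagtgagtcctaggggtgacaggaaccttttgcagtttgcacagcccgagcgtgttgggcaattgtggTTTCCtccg
A κB motif (GGG, any 2 bases, then TTTCC) was found in the Ltb window only of the 6, against 1.63% of all 32851 windows of that length, and it overlaps the GGAAA match there. An AP-1 motif, TGANTCA, was found in the Tnfsf14 window only, against 7.81% of all windows. The core of the NFAT motif, GGAAA, was found in 6 of 6, with 3 matches each in Tnf and Lta, 4 in Tnfsf14 and 1 each in Ltb, Tnfsf11 and Tnfsf8, but 61.3% of all windows hold it. A match describes letters in a window and does not show that a factor binds there.

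The values are normalized counts on a log2 scale, so a difference of 1 is a 2-fold change. Levels of different genes come from different probes and are not set against each other. From the steps between low values, 697709 to 1186074 counts were recovered per sample in 8 samples, and 132058 in replicate 2 of the macrophage group, whose values had been scaled up by 6.38 (0.681 to 1.36 in the others). In that replicate each member rested on 29 to 477 counts, a counting error of 4.58% to 18.6%, against 33 to 6675 counts in the other samples. For several results that rest on it, the value or the direction without it is also given. The median level of 15 T cell markers was 11.30 to 11.64 on the log2 scale in every sample, and Cd8a was at 11.53 to 12.54. Relative to OT-1 alone, 7 of the 15 rose and 8 did not pass with macrophages and tumor, and 5 rose, 4 fell and 6 did not pass with macrophages. Cd7, named after its values were seen, was at 8.58 to 8.69 in OT-1 alone, 5.87, 7.43 and 5.60 in macrophage replicates 1 to 3, and 6.89 to 7.40 with macrophages and tumor. The summed normalized count of 21 macrophage markers was 611 to 805 in OT-1 alone, 760 and 889 in macrophage replicates 1 and 3, 2526 in replicate 2 and 969 to 1098 with macrophages and tumor. Of these 21, only Tlr2 rose with macrophages (adjusted p = 0.0429 from limma) and 0 passed with macrophages and tumor, where 2 had an unadjusted p under 0.05. No marker was listed at 0, and the defining gene Emr1 (Adgre1) ranged from 2.03 to 6.58, its highest value being in replicate 2. Of 12 tumor or mesenchymal genes, Spp1 and Pecam1 rose in both co-cultures. Spp1 was at 11.20 to 11.33 in OT-1 alone, 13.67 to 13.83 with macrophages and 13.02 to 13.10 with macrophages and tumor. The part of macrophage, tumor or other cells in the results below was not tested, and in such bulk samples fewer cells carrying a transcript and less of it per cell cannot be told apart.

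Of the 9 ligand genes, 4 rose with macrophages and tumor relative to OT-1 alone, 1 fell and 4 did not pass (limma across all 750 genes, Benjamini-Yekutieli adjusted p under 0.05). Over all genes the shares were 14.5% higher and 3.87% lower. With macrophages and no tumor, 3 rose, 2 fell and 4 did not pass, against 11.9% higher and 6.53% lower over all genes. The groups did not overlap for 8 of 9 members in each comparison, where 57.1% and 53.1% of all genes did not overlap. The genes that rose in both were Tnfsf11, Tnfsf14 and Tnfsf8, and Lta fell in both. Tnfsf4 rose with tumor and did not pass without it, a difference that missed its own test (adjusted p = 0.136 from limma), and Ltb fell with macrophages and did not pass with tumor. The median difference of the members was 0.69 in each comparison, and that of all 750 genes was 0.40 with tumor and 0.66 without. Over the 422 genes with a mean level of at least 50 normalized counts, which include all 9 members, the median was 0.23 with tumor and 0.085 without. The medians with macrophages rest in part on macrophage replicate 2. Without it that of all genes was 0.20, and that of the members was lower too. Both comparisons use the same OT-1 alone samples. Subtracting each sample's median over all genes left 0 members higher and 1 lower in each, with 13 higher and 15 lower of all genes with tumor and 7 and 30 without. Centring on highly expressed genes gave 3 members higher and 2 lower in each, and quantile normalization 2 and 2.

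**Figure D1:**
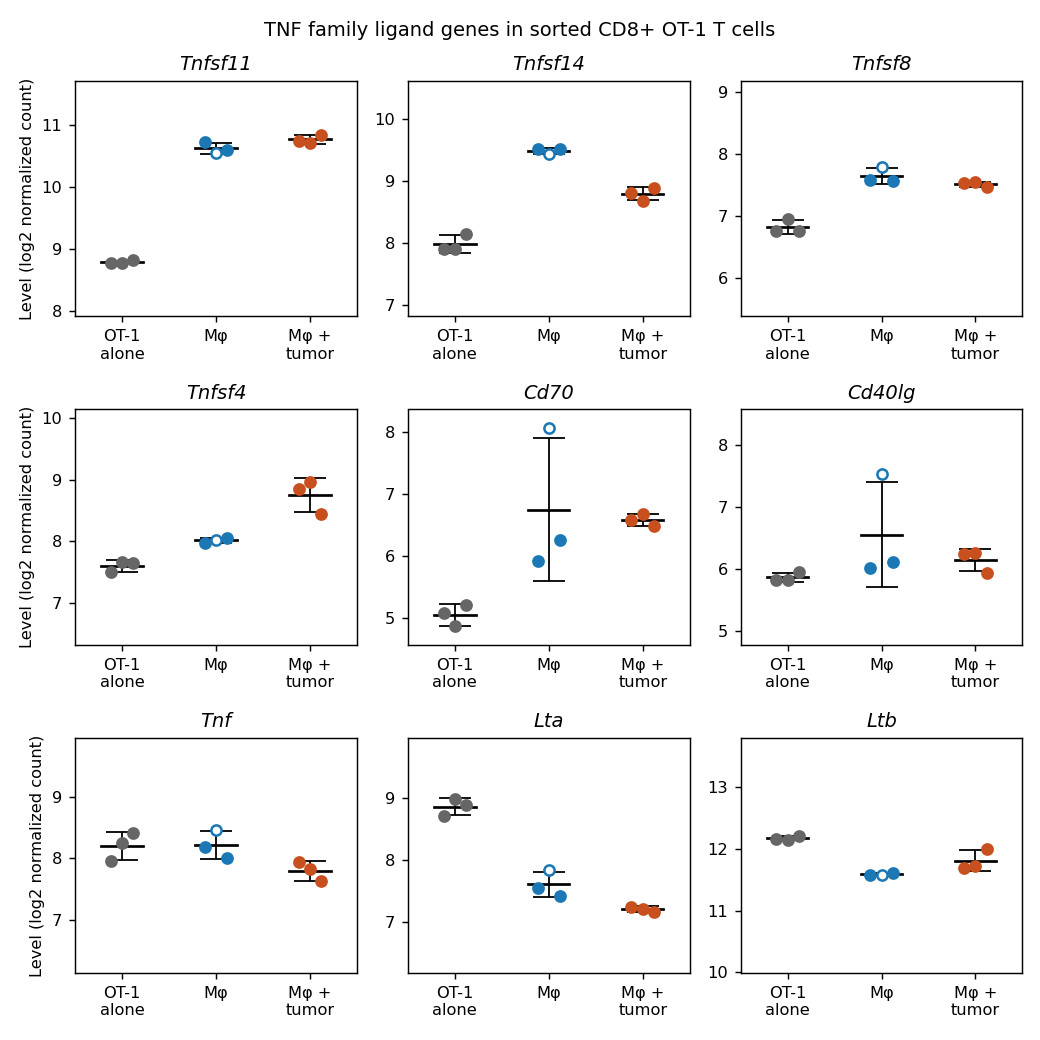
Level of each ligand gene in every sample, on the log2 scale of normalized counts, by group (OT-1 alone, with macrophages (Mφ), and with macrophages and tumor). Points are samples, bars are the mean and SD of 3, all panels span the same range of log2 units, and the open circle is macrophage replicate 2. Tnfsf11 stands apart between OT-1 alone and both co-cultures, while the open circle sets the macrophage mean of Cd70 and Cd40lg.

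Tnfsf11 encodes RANKL, the ligand of RANK (Tnfrsf11a), which drives osteoclast formation and prolongs dendritic cell survival. Its level was 8.78, 8.78 and 8.82 in OT-1 alone, 10.73, 10.55 and 10.60 in the macrophage co-culture, and 10.75, 10.72 and 10.85 with macrophages and tumor. Every co-culture sample lay above every sample of OT-1 alone, and the co-cultures overlapped each other. The rise was 3.94-fold with tumor (limma log2 difference of 1.98, SE 0.08, n = 3 per group, adjusted p = 3.46e-05) and 3.56-fold with macrophages (1.83, SE 0.08, adjusted p = 4.02e-05). Each call was lost in 1 of 21 other settings, centring on the median of all genes, which gave 1.47 (adjusted p = 0.129) and 1.14 (adjusted p = 0.396). Between the co-cultures the difference was 0.15, with a 95% interval of −0.04 to 0.33.

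Over the 9 samples, the genes of the table whose pattern lay nearest to that of Tnfsf11 were Cd27, Klrc2 and Dusp4. Their values, each taken from the gene's own mean, differed from those of Tnfsf11 by a root mean square of 0.150, 0.181 and 0.182 on the log2 scale, where Tnfsf11 itself ranged over 2.07. Cd27, the receptor of the CD70 ligand, is on the receptor list below, Klrc2 encodes an NKG2 receptor chain and Dusp4 a MAP kinase phosphatase.

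Tnfsf14 encodes LIGHT, which binds HVEM (Tnfrsf14) on lymphocytes and the lymphotoxin β receptor on stromal and myeloid cells. Its level was 7.90, 7.90 and 8.14 in OT-1 alone, 9.51, 9.43 and 9.52 in the macrophage co-culture, and 8.81, 8.68 and 8.89 with macrophages and tumor. The 3 groups did not overlap, and the samples with tumor lay between the others. Tnfsf14 rose 2.84-fold with macrophages (1.51, SE 0.10, adjusted p = 2.92e-04 from limma) and 1.76-fold with macrophages and tumor (0.81, SE 0.10, adjusted p = 0.00488). Centring on the median of all genes ended both calls, at 0.81 and 0.30.

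In the direct comparison, macrophages and tumor against macrophages, Tnfsf14 was the only member of the 9 to pass, lower by 0.69 (SE 0.10, 95% interval −0.93 to −0.46, adjusted p = 0.0447 from limma), with 0 members higher. At an unadjusted p under 0.05, 1 member was higher and 3 were lower, and the methods' t-test called 0 in either direction. Over all genes, 0.533% were lower and 2.67% higher in this comparison. The call lay near the threshold. It was lost without any 1 of the 9 samples (−0.64 to −0.74, adjusted p from 0.0512 to 0.242) and in 13 of 21 settings in all, always with the same sign. Without macrophage replicate 2 the difference was −0.72 (adjusted p = 0.0512). The genes nearest to Tnfsf14 in pattern were Egr2, Ccl1 and Nfatc1, with a root mean square difference of 0.166, 0.211 and 0.229 against a range of 1.62 in Tnfsf14. Egr2 encodes a transcription factor of activated T cells, Ccl1 a chemokine, and Nfatc1 a TCR-responsive transcription factor. Their differences between the co-cultures were −0.46, −1.07 and −0.23, values given without a test because the genes were chosen for their likeness to Tnfsf14 over the same samples.

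Tnfsf8 encodes the CD30 ligand. Its level was 6.76, 6.95 and 6.76 in OT-1 alone, 7.58, 7.80 and 7.56 in the macrophage co-culture, and 7.53, 7.55 and 7.47 with macrophages and tumor. All co-culture samples were above OT-1 alone, and all samples with tumor were slightly below those without. It rose 1.77-fold with macrophages (0.82, SE 0.10, adjusted p = 0.00454 from limma) and 1.62-fold with macrophages and tumor (0.69, SE 0.10, adjusted p = 0.00935). The call with macrophages was lost in 4 of 21 settings, which were centring on the median of all genes (0.13), quantile normalization (0.26), a fit of only the groups compared and the methods' t-test (both 0.82, adjusted p = 0.0559 and 0.0671). The call with tumor was lost in 7 of 21 settings. These were the 3 other scalings, at 0.18, 0.38 and 0.44, and the fits without tumor co-culture replicate 1 or 2 or OT-1 alone replicate 1 or 3 (0.66 to 0.69, adjusted p from 0.0574 to 0.0631). Between the co-cultures the difference was −0.13 (95% interval −0.36 to 0.10).

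Tnfsf4 encodes OX40L, a costimulatory ligand best known on antigen-presenting cells and also made by activated T cells. Its level was 7.50, 7.67 and 7.66 in OT-1 alone, 7.97, 8.03 and 8.05 in the macrophage co-culture, and 8.85, 8.96 and 8.44 with macrophages and tumor. The groups did not overlap, with tumor samples highest and replicate 3 the lowest of them. Tnfsf4 rose 2.20-fold with macrophages and tumor (1.14, SE 0.14, adjusted p = 0.00518 from limma), a call that quantile normalization ended (0.84, adjusted p = 0.106), as did the methods' t-test and centring on all genes (0.63). With macrophages the difference was 0.41 (95% interval 0.08 to 0.74, adjusted p = 0.478), and centring on the median of all genes turned it to −0.29. Between the co-cultures it was 0.73 (SE 0.14, 95% interval 0.40 to 1.06, adjusted p = 0.136), past the threshold in 5 of 21 settings, among them the fit without tumor co-culture replicate 3 (0.89, adjusted p = 0.0296). Tnfsf4 and Tnfsf14 thus had the widest separations between the co-cultures among the members whose values did not rest on replicate 2, in opposite directions.

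Cd70 encodes the ligand of CD27 and is a transient product of activated lymphocytes. Its level was 5.09, 4.87 and 5.22 in OT-1 alone, 5.93, 8.07 and 6.26 in the macrophage co-culture, and 6.58, 6.69 and 6.49 with macrophages and tumor. All co-culture samples were above OT-1 alone, but macrophage replicate 2 stood far above its group. That replicate had 42 recovered counts (a counting error of 0.22 on the log2 scale), where replicates 1 and 3 had 73 each. The OT-1 alone samples were low too, at 50, 41 and 33 counts (errors of 0.20 to 0.25). The differences were 1.53 with tumor (SE 0.51, adjusted p = 0.471) and 1.69 with macrophages (SE 0.51, adjusted p = 0.317), and neither passed. A floor of 100 normalized counts left a difference of 0.02 with tumor. With tumor, Cd70 passed in 4 of 21 settings, among them a fit of only the groups compared (adjusted p = 0.00225) and the methods' t-test (adjusted p = 0.0125), which do not use the macrophage group, and array weights (1.61, adjusted p = 2.77e-04). With macrophages it passed in 3 settings, with array weights (1.27, adjusted p = 6.54e-04) and Benjamini-Hochberg adjustment (adjusted p = 0.0440) among them. The estimation of array weights stopped before it converged, so the values under them are approximate. Without replicate 2, Cd70 passed with tumor (1.53, adjusted p = 0.00112 from limma) and with macrophages (1.03, adjusted p = 0.0130), and the co-cultures then differed by 0.49 (adjusted p = 0.511) in place of −0.17. In that replicate, whose values had been scaled up by 6.38, the summed markers of all 6 lists of other cells were the highest of all samples. The lists were of macrophages, B cells, CD4 T cells, dendritic cells, NK cells, and tumor or mesenchymal cells. The lead was slight for NK cells (21781 against at most 21662 elsewhere). That list holds Klrk1 and Klrc1, which the paper reports as raised in these T cells in co-culture, so its sum is not specific to other cells. The lead was also slight for tumor or mesenchymal cells (15774 against at most 15692), a sum that was mostly Spp1 (13494). For B cells the sum was 962 against 171 to 339 elsewhere, for dendritic cells 696 against 193 to 323, and for the pair of CD4 T cell markers 178 against at most 52.9. The median level of the tumor or mesenchymal genes was 7.36 there, in a culture without tumor cells, against 4.22 to 5.42 elsewhere. The part of this in the Cd70 value was not tested.

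Cd40lg encodes the ligand of CD40, the helper signal that T cells give to B cells, dendritic cells and macrophages. Its level was 5.82, 5.83 and 5.95 in OT-1 alone, 6.01, 7.53 and 6.12 in the macrophage co-culture, and 6.24, 6.26 and 5.94 with macrophages and tumor. Replicate 2, on 29 recovered counts, again stood far above its group, and the samples with tumor overlapped those of OT-1 alone. No comparison passed. The difference was 0.69 with macrophages (95% interval −0.21 to 1.58), 0.20 without replicate 2, and 0.28 with tumor (95% interval −0.62 to 1.18). Both changed sign under other scalings, to −0.05 at the lowest with macrophages and −0.23 with tumor. The co-cultures differed by −0.41 (95% interval −1.30 to 0.49), and by 0.08 without replicate 2.

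Tnf encodes the founding member of the family, an inflammatory cytokine that binds both TNF receptors. Its level was 7.96, 8.25 and 8.41 in OT-1 alone, 8.18, 8.46 and 8.01 in the macrophage co-culture, and 7.94, 7.83 and 7.63 with macrophages and tumor. The tumor samples lay lowest, the nearest of them 0.02 below the lowest of OT-1 alone. No comparison of Tnf passed in any of the 21 other settings. The difference was −0.41 with tumor against OT-1 alone (95% interval −0.80 to −0.02, adjusted p = 0.900) and 0.01 with macrophages (95% interval −0.38 to 0.40). Between the co-cultures it was −0.42 (95% interval −0.81 to −0.03, adjusted p = 1).

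Lta encodes lymphotoxin α, which acts as a soluble trimer on the TNF receptors or, joined with lymphotoxin β, on the lymphotoxin β receptor. Its level was 8.71, 8.99 and 8.90 in OT-1 alone, 7.56, 7.84 and 7.43 in the macrophage co-culture, and 7.25, 7.22 and 7.16 with macrophages and tumor. The 3 groups did not overlap and OT-1 alone was highest. Lta fell 3.15-fold with macrophages and tumor (−1.66, SE 0.13, adjusted p = 4.63e-04 from limma) and 2.39-fold with macrophages (−1.26, SE 0.13, adjusted p = 0.00226). The first call held in all 21 other settings, at −2.17 to −1.60, and was the only member call to do so, and the second was lost only in the methods' t-test (adjusted p = 0.0614). Set against each other, the co-cultures differed by −0.40 (95% interval −0.70 to −0.10, adjusted p = 0.857).

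The genes nearest to Lta in pattern over the 9 samples were Socs1, Ccr2 and Ada, with a root mean square difference of 0.181, 0.281 and 0.291 against a range of 1.83 in Lta. Socs1 encodes a brake on cytokine signalling, Ccr2 a chemokine receptor and Ada adenosine deaminase.

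Ltb encodes lymphotoxin β, the membrane anchor of the lymphotoxin heterotrimer. Its level was 12.15, 12.14 and 12.20 in OT-1 alone, 11.57, 11.57 and 11.61 in the macrophage co-culture, and 11.69, 11.72 and 12.00 with macrophages and tumor. OT-1 alone was highest and the macrophage samples lowest, with no overlap. Ltb fell 1.49-fold with macrophages (−0.58, SE 0.10, adjusted p = 0.0249 from limma). This call was lost in 8 of 21 settings, including the fits without tumor co-culture replicate 2, macrophage replicate 1 or 3, or any replicate of OT-1 alone (−0.56 to −0.59, adjusted p from 0.0581 to 0.131). With tumor the difference of −0.36 did not pass (95% interval −0.59 to −0.13, adjusted p = 0.209), but it passed in 7 of 21 settings, among them the fit without tumor co-culture replicate 3 (−0.46, adjusted p = 0.0372). Between the co-cultures Ltb differed by 0.22 (95% interval −0.01 to 0.45). The adjacent genes Ltb, Tnf and Lta thus gave differences of −0.58, 0.01 and −1.26 with macrophages.

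**Figure D2:**
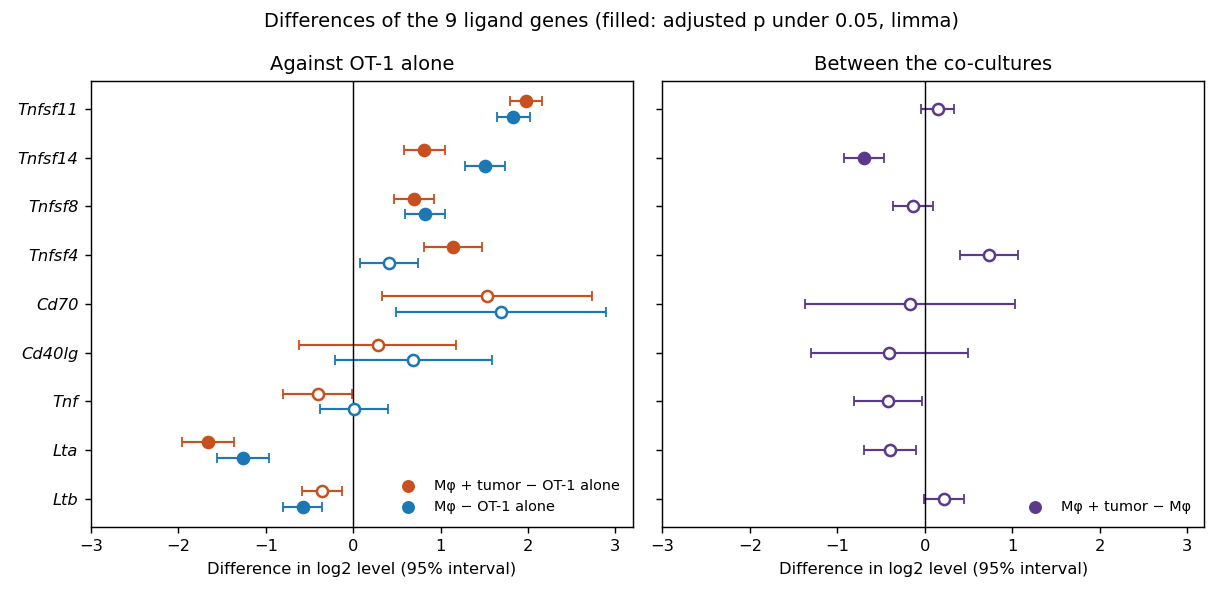
Difference of each ligand gene in log2 level with its 95% interval, left for each co-culture against OT-1 alone and right between the co-cultures (Mφ, macrophages). Filled points have an adjusted p under 0.05, and on the right only Tnfsf14 is filled, at −0.69.

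Between the co-cultures, 6 of 9 members did not overlap, 2 above and 4 below with tumor, where 24.9% of all genes did not overlap. The median of the members was −0.17 and that of all genes −0.12, and both rest on macrophage replicate 2. Without it the median of all genes was 0.17, and that of the members was also positive. With all samples, the median of the 422 genes with a mean level of at least 50 normalized counts was 0.12. Besides Tnfsf14, the members without overlap were Tnfsf4 and Ltb (higher in every sample with tumor) and Tnfsf8, Tnf and Lta (lower in every sample with tumor). None of these others passed. An exact permutation test of 3 samples against 3 cannot give a two-sided p below 0.1, the value it gave for every member whose groups did not overlap, so the calls here rest on the fit across genes.

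The receptors of these ligands were measured in the same T cells, 10 of the 10 listed. With macrophages and tumor, 3 rose, 2 fell and 5 did not pass, and with macrophages 2 rose, 2 fell and 6 did not pass. Over all genes the shares were 14.5% higher and 3.87% lower with tumor, and 11.9% and 6.53% with macrophages. Between the co-cultures 0 of 10 passed in limma or in the methods' t-test, and 2 were higher at an unadjusted p under 0.05. The median difference of the list was 0.52 with tumor and 0.99 with macrophages, where that of all genes was 0.40 and 0.66. The 0.99 lies between the differences of Ltbr (0.87) and Tnfrsf11b (1.11). Both genes were highest in macrophage replicate 2, so this median rests in part on that replicate. Without it the median of all genes with macrophages was 0.20, and that of the list was lower too.

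With tumor, Tnfsf4 and its receptor gene both rose, whereas Tnfsf8 rose while its receptor gene fell. Tnfrsf4 (OX40), the receptor of the Tnfsf4 product, was at 7.41, 7.44 and 7.29 in OT-1 alone, 8.47, 8.98 and 8.38 in the macrophage co-culture, and 9.20, 9.14 and 9.03 with macrophages and tumor. It rose by 1.23 without tumor and by 1.74 with it (adjusted p = 0.00730 and 0.00112, limma), and every sample with tumor was above every sample without. Cd27, the receptor of the Cd70 product, was at 8.80, 8.84 and 8.90 in OT-1 alone, at 10.40, 10.30 and 10.57 in the macrophage co-culture, and at 10.52, 10.51 and 10.58 with tumor. It rose by 1.69 and 1.58 (adjusted p = 7.93e-05 and 1.41e-04). Tnfrsf8 (CD30) went the other way from its ligand gene, with 7.89, 8.01 and 8.04 in OT-1 alone, 5.89, 6.13 and 5.63 in the macrophage co-culture, and 6.0, 5.75 and 6.0 with tumor. It fell by 2.06 and by 2.10 (adjusted p = 3.27e-04 and 3.49e-04), and the call held in all 21 other settings. The calls of Cd27 and of Tnfrsf4 with tumor were each lost only when samples were centred on the median of all genes. The Tnfrsf4 call with macrophages was also lost in a fit of only the groups compared and in the methods' t-test.

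Of the TNF receptors, Tnfrsf1a (TNFR1, with a death domain) fell by 0.55 without tumor and by 0.59 with it (adjusted p = 0.0213 and 0.0123, limma). Tnfrsf1b (TNFR2, without one) rose by 0.53 with tumor (adjusted p = 0.00932), and with macrophages the difference was 0.12 (adjusted p = 1). These calls were lost in 10, 7 and 6 of 21 settings. For Tnfrsf1a they included the fits without any OT-1 alone sample, with macrophages also those without tumor co-culture replicate 2 or macrophage replicate 1 or 3 (−0.50 to −0.57), and with tumor also those without tumor co-culture replicate 2 or 3 (−0.56 to −0.61). For Tnfrsf1b they included those without tumor co-culture replicate 1 or OT-1 alone replicate 1 or 2 (0.50 to 0.53). Tnfrsf14 (HVEM), at 9.02 to 9.47 in all samples, did not pass in either comparison, with differences of 0.23 and 0.01. Tnfrsf11a (RANK), Tnfrsf11b (the RANKL decoy osteoprotegerin), Cd40 and Ltbr had group means of 3.55 to 5.64, were highest in macrophage replicate 2 and passed in no comparison.

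**Figure D3:**
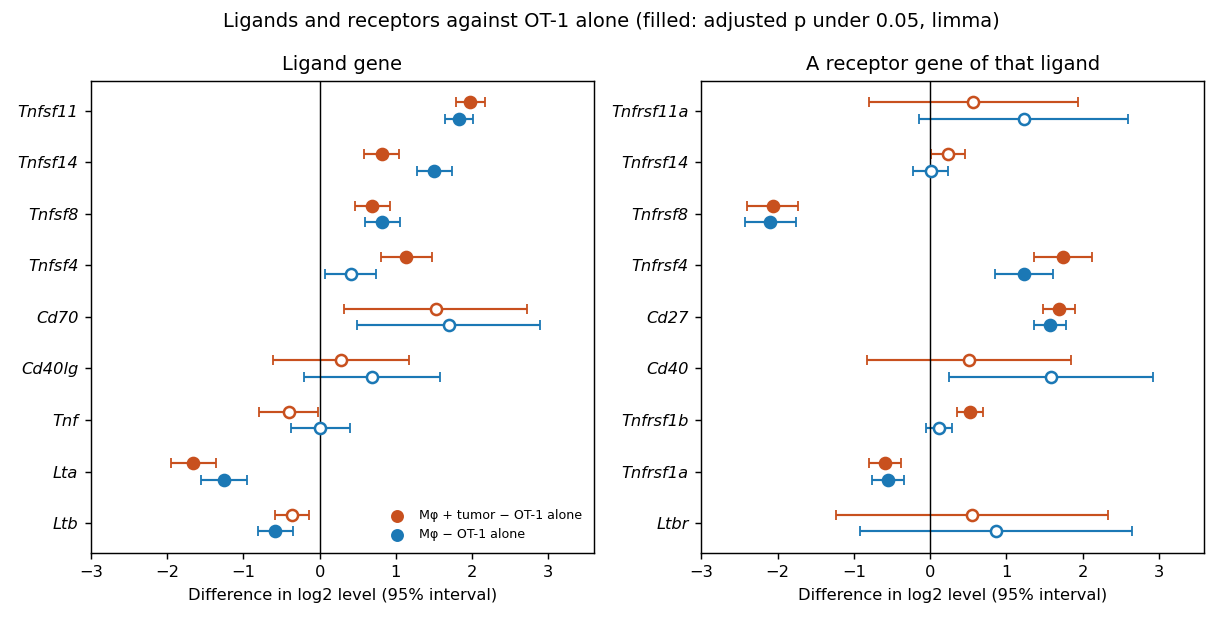
Differences in log2 level against OT-1 alone with 95% intervals, for each ligand gene (left) and a receptor gene of that ligand (right, same row), with macrophages and tumor or with macrophages (Mφ). Filled points have an adjusted p under 0.05: Tnfsf8 is above 0 while its receptor Tnfrsf8 is near −2, and Cd27 and Tnfrsf4 are above 0.

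Of the other TNF family ligands, 7 of 9 listed were measured, and 1 rose in each comparison with OT-1 alone, Tnfsf10, which encodes the death ligand TRAIL (0.58 with tumor, adjusted p = 0.0223, and 0.76 with macrophages, adjusted p = 0.00639, limma). The call with tumor was lost in 11 of 21 settings, among them the fits without any sample of OT-1 alone or the tumor co-culture or without macrophage replicate 3 (0.56 to 0.62). Over all genes 14.5% were higher with tumor and 11.9% with macrophages. Without macrophage replicate 2, 3 of the 7 passed with tumor (Tnfsf10, Tnfsf12 and Tnfsf13b, named after their values were seen) and 1 with macrophages. Fasl, the gene of the Fas ligand, did not pass, at −0.10 with tumor and −0.38 with macrophages (adjusted p = 1 and 0.0666). All macrophage samples lay below OT-1 alone, and that difference passed in 8 of 21 settings. Between the co-cultures Fasl differed by 0.28 (95% interval 0.09 to 0.47, adjusted p = 0.620), with every tumor sample above, and passed in 1 of 21 settings.

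Among genes of TRAF and NF-κB signalling, through which the receptors act, 17 of 28 listed were measured. In both comparisons with OT-1 alone 4 rose, 1 fell and 12 did not pass, with a median of 0.19 with tumor and −0.03 with macrophages. All genes had shares of 14.5% higher and 3.87% lower with tumor, and 11.9% and 6.53% with macrophages. Tnfaip3, the gene of the NF-κB inhibitor A20, was at 8.68, 8.66 and 8.81 in OT-1 alone, 10.19, 9.95 and 10.06 in the macrophage co-culture, and 11.47, 11.21 and 11.34 with tumor. It rose by 2.62 and 1.35 and was the only gene of the list to pass between the co-cultures, higher with tumor by 1.27 (adjusted p = 0.00350 from limma), a call lost in 3 of 21 settings. Nfkbia, which encodes IκBα, rose by 1.26 with tumor and 1.43 with macrophages, and Rel, which encodes an NF-κB subunit, by 1.14 and 1.07. Nfkb2 rose by 0.82 and 0.52, and Traf3, a brake on noncanonical NF-κB, fell by 0.64 and 0.65. The Nfkb2 call with macrophages was lost without any 1 sample other than macrophage replicate 2 (0.48 to 0.58). That of Traf3 was lost with tumor without any tumor co-culture sample or OT-1 alone replicate 2 or 3 (−0.60 to −0.69), and with macrophages also without macrophage replicate 1 or 3 (−0.57 to −0.71). Centring on the median of all genes left 1 of these calls with tumor, that of Tnfaip3, and 0 with macrophages.

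The settings of scale and of samples moved the members to different degrees, as the plot of differences by setting shows.

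**Figure D4:**
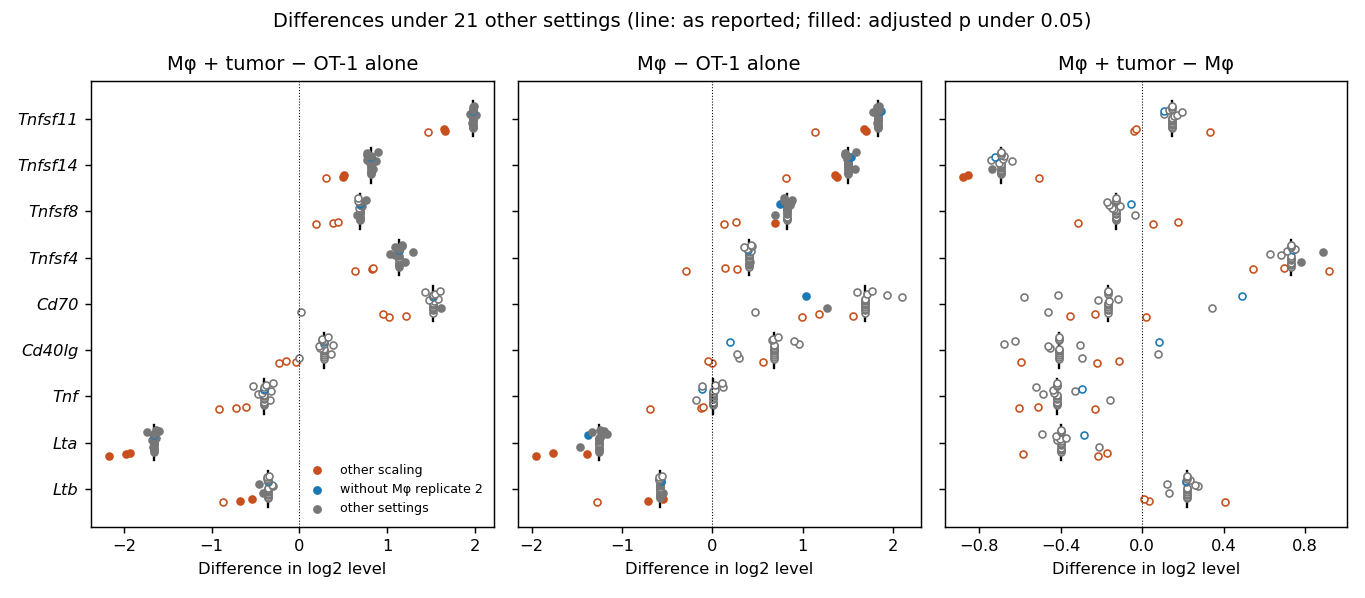
Difference in log2 level of each ligand gene under 21 other settings (points) around the reported value (black line) in the 3 comparisons, with the x axes on different scales. Filled points have an adjusted p under 0.05, orange are other scalings of the samples, blue is the fit without macrophage (Mφ) replicate 2 and gray the rest. In the left panel Lta is filled at every setting, and Cd70 turns filled without replicate 2.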

How the data were processed

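RNA from 9 samples of mouse CD8+ OT-1 T cells (3 per group) was counted on an nCounter with the PanCancer Immune panel, and the authors normalized the counts in nSolver and deposited log2 normalized values for 750 genes. The reference genes used by the authors were not used here, so the normalization was not repeated. Because the deposited values are on a log2 scale, raw counts were recovered only to judge depth, from the steps between low values (100% of values up to 40 counts were whole within 0.006 on the log2 scale).

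Each gene was compared between groups with limma 3.58.1 in R 4.3.3 on all 9 samples, with 1 coefficient per group. Tests were two-sided, with Benjamini-Yekutieli adjustment over 750 genes, a threshold of 0.05, and no filter or floor on low values. Fold changes are powers of 2 of the differences in group mean. The procedure was tested on simulated data. Of the samples, no pair within a group differed by less than the sampling noise of recovered counts (chi-square of 1.95 to 26.0 over its degrees of freedom), so each was counted once. The labels number the samples of a group and do not say whether they came from separate mice or cultures, so p-values measure the spread between these samples, which may be technical.

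The 9 members, the pathway lists and the marker lists were chosen with earlier results of these data known. All members are named. From each pathway list up to 4 genes with the largest change past the threshold are named per comparison, with the receptors of the members, and for 3 members the 3 genes of nearest pattern. Gene names and promoter windows come from RefSeq (GRCm38.p6). The build behind the probes is not given in the sources used here. The alternatives tried were 3 other scalings, floors of 20 and 100 and a minimum of 50 normalized counts, a fit of only the 2 groups compared, array weights, a variance trend, Benjamini-Hochberg adjustment, the methods' t-test, the replicate number as a block, and leaving out each sample.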

Additional observations from a re-analysis of the deposited data

Results flagged for a closer look

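Among the 9 ligand genes, Tnfsf14 (LIGHT) was the only one whose change against OT-1 alone differed by the direct test between the co-culture with macrophages and tumor and the co-culture with macrophages. The change was smaller with tumor by −0.69 on the log2 scale (0.81 against 1.51, adjusted p = 0.0447 from limma over 750 genes), and all 3 samples with tumor lay below all 3 without. Such non-overlap was seen for 6 of the 9 members and 24.9% of all genes. The call was lost in 13 of 21 other settings, among them leaving out any 1 sample, always with the same sign.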

How the results depend on the processing

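Of 567 combinations of member, comparison and setting, 507 kept their side of the threshold, 20 passed newly and 40 no longer passed, and no call changed sign. For macrophages and tumor relative to OT-1 alone (4 higher, 1 lower as reported), centring on all genes gave 0 higher and quantile normalization 2 higher, while a fit of only the 2 groups compared and array weights gave 5. Lower members were 2 with centring on high genes, quantile normalization, the 50-count minimum, array weights, a variance trend and Benjamini-Hochberg. Leaving out 1 sample gave 3 to 5 higher and 1 to 2 lower. With macrophages against OT-1 alone (3 higher, 2 lower), centring on all genes gave 0 and 1, array weights 5 higher, and the methods' t-test and the replicate block 1 lower. Leaving out 1 sample gave 3 to 4 higher and 1 to 2 lower. Between the co-cultures (0 higher, 1 lower), the 50-count minimum, array weights, a variance trend and Benjamini-Hochberg gave 1 higher. Centring on all genes, a fit of only the 2 groups compared, the methods' t-test and the replicate block gave 0 lower. Leaving out 1 sample gave 0 to 1 higher and 0 lower throughout. Counts of all genes moved too: against OT-1 alone with tumor, centring on high genes gave 68 higher and 71 lower and quantile normalization 72 and 68, in place of 109 and 29. With macrophages these were 69 and 71, and 68 and 68, in place of 89 and 49. The replicate block gave 91 and 20 with tumor and 66 and 30 with macrophages, and the correlations of same-numbered samples (−0.37 to 0.46) do not show that the numbers pair them. The estimation of array weights stopped before it converged, so its counts are approximate. The cause of the scaling dependence was not tested. Depth was lowest in macrophage replicate 2, where Cd40lg rested on 29 counts and Cd70 on 42, against 36 for Lta, 35 for Tnfsf8 and 41 for Tnfsf4.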
